A study of Mus musculus with 4 samples.

Results

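Thyroid hormone signalling in the mouse suprachiasmatic nucleus (SCN), the hypothalamic seat of the master circadian clock, was followed through 8 genes on 4 arrays. The genes encode the nuclear receptors (Thra and Thrb), the hormone-converting deiodinases (Dio2 and Dio3) and products known to respond to the hormone in brain (Hr, Aldh1a1, Sema7a and Flywch2). They were measured by the 9 probesets that the platform annotation gives to exactly 1 of these symbols, out of 23521 single-gene probesets and 41345 probesets in all. Dio2 has 2 probesets and the other genes have 1 each. Of the 9 probesets, 6 reached the expression floor, a log2 value of 6.02 on at least 1 array, which is the median over single-gene probesets of each one's highest value. The floor was not reached by Dio3 or by either Dio2 probeset. None of the 8 genes encodes a hormone transporter. Transporters are described below as a separate list.

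The 4 groups were non-HPX mice at Zeitgeber time (ZT) 2, non-HPX mice at ZT14, HPX mice at ZT2 and HPX mice at ZT14, with 1 array in each. HPX mice lacked the pituitary, having been hypophysectomized, and non-HPX mice were the controls. All groups were kept in 12 h of light and 12 h of dark, so that ZT2 fell shortly after lights on and ZT14 shortly after lights off. Laser-microdissected SCN samples of 10 animals were pooled for each time. Whether this number holds for each surgical state is not stated. For strain, sex, age, the interval after surgery and any sham operation of the controls the labels give no entry. Each value below is thus that of 1 pool on 1 array, with no replicate and no measure of how animals differ.

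The pituitary hormone thyrotropin drives the thyroid gland, whose main product is thyroxine. In brain, thyroxine is taken up through membrane transporters, and DIO2, an enzyme best known from astrocytes and tanycytes, converts it to the active hormone triiodothyronine, while DIO3 inactivates both forms. Triiodothyronine binds the receptors TRα and TRβ, which sit on DNA with retinoid X receptors, often at direct repeats of the half-site AGGTCA, and which repress many target genes when no hormone is bound. Hypophysectomy removes thyrotropin along with the other pituitary hormones; hormone levels were not analysed here. Hr encodes Hairless, a corepressor that is itself a classic hormone-induced gene of the brain.

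The RefSeq promoter table (GRCm38.p6) held the start sites of 6 of the 8 genes, in 8 windows, but not those of Thra and Hr. The 250 bases before each start were searched on both strands for the half-site AGGTCA, for a direct repeat of it with any 4 bases between the copies, and for CCAAT, the box bound by NF-Y. Both annotated starts of Aldh1a1 are shown because it was the member called in the surgery comparison, and a Thrb start is shown because it alone among the 8 windows held the half-site. Capitals mark CCAAT in Aldh1a1 and AGGTCA in Thrb. Each is written 5′ to 3′ on the plus strand, the strand of both genes.
Aldh1a1, chr19:20601718-20601967: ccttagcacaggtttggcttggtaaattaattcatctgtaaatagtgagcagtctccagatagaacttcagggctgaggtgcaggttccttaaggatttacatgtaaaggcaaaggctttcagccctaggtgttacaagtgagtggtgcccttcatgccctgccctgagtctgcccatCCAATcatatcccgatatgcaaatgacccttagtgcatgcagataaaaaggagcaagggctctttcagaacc
Aldh1a1, chr19:20492333-20492582: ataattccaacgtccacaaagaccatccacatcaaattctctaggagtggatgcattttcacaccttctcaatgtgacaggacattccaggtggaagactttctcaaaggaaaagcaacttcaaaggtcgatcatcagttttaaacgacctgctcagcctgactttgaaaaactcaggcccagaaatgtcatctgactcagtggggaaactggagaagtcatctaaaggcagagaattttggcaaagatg
Thrb, chr14:17660710-17660959: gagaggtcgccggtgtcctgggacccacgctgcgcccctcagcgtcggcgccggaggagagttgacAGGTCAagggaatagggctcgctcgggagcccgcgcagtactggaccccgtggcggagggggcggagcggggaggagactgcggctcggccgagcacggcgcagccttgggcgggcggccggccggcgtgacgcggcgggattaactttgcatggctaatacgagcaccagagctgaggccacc

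The downstream Aldh1a1 window held CCAAT, 72 to 68 bases before the start, and the upstream window held none of these motifs. In the Thrb window the half-site lay 184 to 179 bases before the start. Over all 32851 windows in the table, AGGTCA occurred in 14.02%, its direct repeat in 0.0152% and CCAAT in 33.8%. These matches describe the letters of the windows and were not linked to binding.

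The tissue carried the defining transcripts of the SCN. All 10 SCN markers reached the floor, with Vip, the peptide of the ventral SCN, between 11.62 and 11.88 on the log2 scale. Across the probesets above the floor, Pearson's r between arrays ran from 0.980 (the HPX arrays) to 0.989 (the ZT14 arrays), a description across probesets, which are not replicates. Of 5 choroid plexus markers, 4 had a probeset and 1, Clic6, reached the floor (6.09 in non-HPX at ZT2). Of 9 tanycyte markers 5 reached it, Rax not among them, and the log2 of the list's summed level was 10.10 and 10.13 in non-HPX and 10.27 and 10.37 in HPX. Vim probeset 17367055, the highest of the list, carried most of that difference, at 8.92 on both non-HPX arrays and 9.23 and 9.35 in HPX. For surgery 0 of the tanycyte probesets passed in limma and 2 had an unadjusted p under 0.05, Vim (0.37, probeset 17367055) and Gpr50 (0.29). Gpr50 reached the floor only on the HPX array at ZT14 (6.12), where it was highest. The other Vim probeset, 17548193, differed by 0.06, and Lhx2, Scn7a and Col25a1 by 0.01, 0.01 and -0.04. The median of the list was 0.04.

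**Figure D1:**
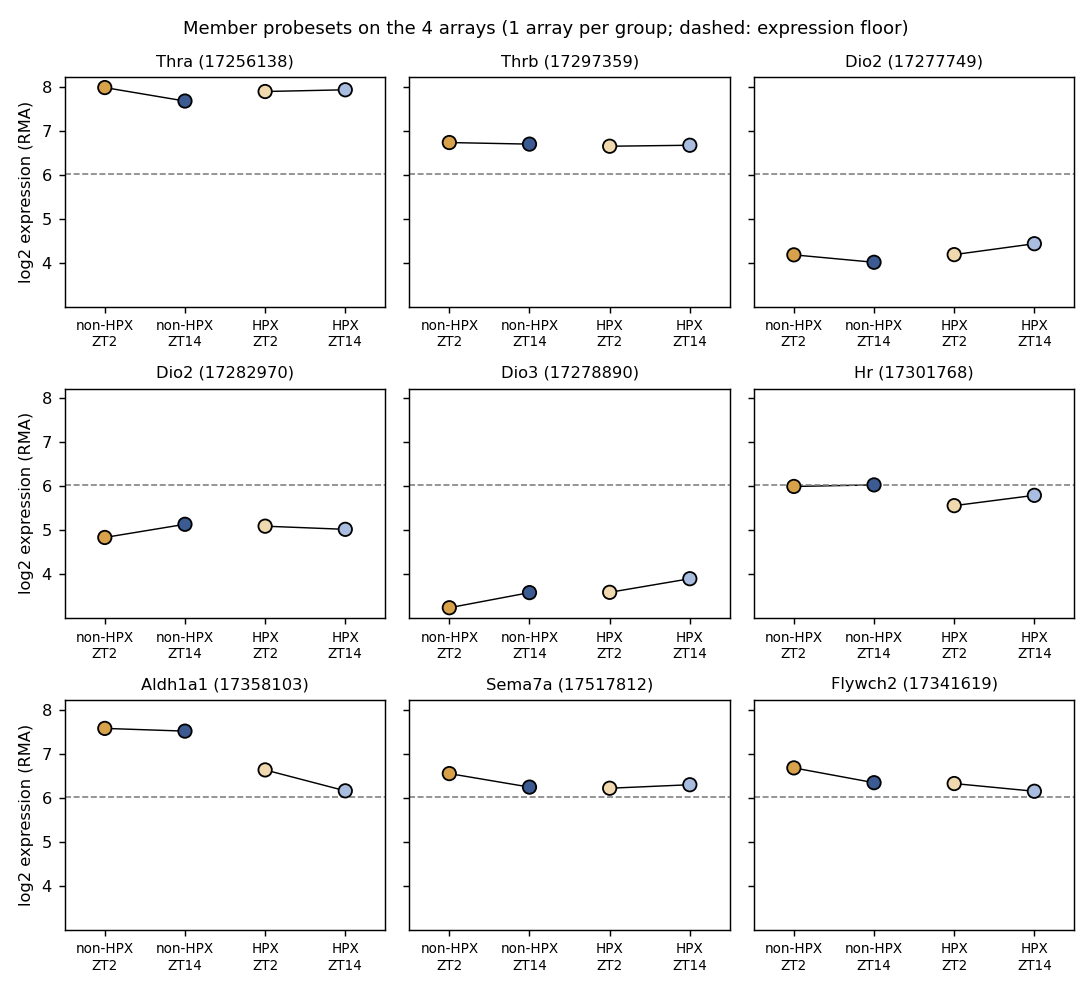
Log2 expression (RMA) of the 9 member probesets on the 4 arrays, with 1 point per array, lines joining ZT2 to ZT14 within a surgical state and a dashed line at the floor of 6.02. The HPX values of Aldh1a1 (6.64 and 6.16) lie under its non-HPX values (7.58 and 7.52), Dio2 and Dio3 lie below the floor throughout, and Hr lies near it.

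The receptors were present in all 4 groups at similar levels. Thra, which encodes TRα, the main receptor of the brain, stood at 7.98 in non-HPX and 7.89 in HPX at ZT2, and at 7.68 in non-HPX and 7.93 in HPX at ZT14. The non-HPX array at ZT14 was the lowest and the other values lay close together, so the surgical states overlapped. Thrb, which encodes TRβ, the receptor of hypothalamic feedback, read 6.73 and 6.70 in non-HPX and 6.65 and 6.67 in HPX (ZT2, then ZT14). Its whole range was 0.08 on the log2 scale, the narrowest of the 9 probesets. The HPX values of Thrb both lay under the non-HPX values, by 0.08 at ZT2 and 0.03 at ZT14.

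In the additive limma fit of surgery and time, the difference HPX minus non-HPX was 0.08 ± 0.12 (SE) for Thra, with a 95% interval from -0.21 to 0.37. For Thrb it was -0.05 ± 0.11, with an interval from -0.31 to 0.20. Neither receptor passed, with an adjusted p of 1.0 for each in limma. This fit has 1 residual degree of freedom, which is the interaction of surgery and time, and limma weighs it with 6.58 prior degrees of freedom taken from all probesets. Its p-values thus draw mainly on the pooled spread of all probesets, which may be technical.

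The deiodinases read low. Dio2 probeset 17277749 stood at 4.18 and 4.01 in non-HPX and 4.18 and 4.43 in HPX (ZT2, then ZT14). Dio2 probeset 17282970 stood at 4.84 and 5.14 in non-HPX and 5.09 and 5.02 in HPX. The probesets disagreed on direction: at ZT14 HPX exceeded non-HPX by 0.42 in the former and was 0.11 lower in the latter, and at ZT2 the differences were 0.00 and 0.26. Night exceeded day in non-HPX by 0.30 in the latter, whereas it was 0.17 lower in the former. Dio3 stood at 3.24 and 3.58 in non-HPX and 3.59 and 3.90 in HPX. Its non-HPX array at ZT2 was the lowest and its HPX array at ZT14 the highest, and HPX exceeded non-HPX by 0.35 at ZT2 and 0.32 at ZT14.

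These 3 probesets were outside the main test. In the fit without the floor, limma gave Dio3 a surgery difference of 0.33 ± 0.12 (SE; 95% interval 0.03 to 0.64, unadjusted p = 0.0379, adjusted p = 0.934) and a night difference of 0.33 ± 0.12 (unadjusted p = 0.0404, adjusted p = 0.673). The Dio2 probesets had surgery differences of 0.21 ± 0.15 and 0.07 ± 0.14, each with an adjusted p of 1.0. Both HPX values lay above both non-HPX values for Dio3 and for Dio2 probeset 17277749, an order that 14.6% of all 23521 single-gene probesets showed. After cyclic loess the difference of that Dio2 probeset at ZT2 turned from 0.00 to -0.10.

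The hormone-responsive genes held the largest difference. Aldh1a1, which encodes a retinaldehyde dehydrogenase that makes retinoic acid, stood at 7.58 in non-HPX and 6.64 in HPX at ZT2, and at 7.52 in non-HPX and 6.16 in HPX at ZT14. The states did not overlap, and the HPX array at ZT14 was the lowest of all. HPX was 1.92-fold lower at ZT2 and 2.56-fold lower at ZT14. The additive fit gave -1.15 ± 0.13 on the log2 scale (SE; 95% interval -1.46 to -0.84; adjusted p = 0.0454 in limma), and Aldh1a1 fell 2.22-fold by this estimate. Of 11761 probesets fitted, 5 had a surgery difference as low, Aldh1a1 being the fifth. Aldh1a1 lay near the threshold: its adjusted p was 0.0527 with the floor required on all 4 arrays, 0.934 without a floor and 0.230 with time left out of the model.

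Hr, the Hairless gene, stood at 5.997 and 6.03 in non-HPX and 5.56 and 5.79 in HPX (ZT2, then ZT14). Both HPX arrays were lower, by 0.44 at ZT2 and 0.24 at ZT14, and the states did not overlap. Its non-HPX value at ZT14 alone reached the floor, so Hr entered the test through a group in which it was high. The surgery difference of -0.34 ± 0.11 (SE; 95% interval -0.60 to -0.07) had an unadjusted p of 0.0194 and did not pass adjustment (adjusted p = 1.0, limma).

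Flywch2, which encodes a FLYWCH-type zinc finger protein, stood at 6.68 and 6.35 in non-HPX and 6.33 and 6.15 in HPX. The non-HPX array at ZT2 was the highest and the HPX array at ZT14 the lowest, and the states lay apart by a margin of 0.02 between HPX at ZT2 and non-HPX at ZT14. Its surgery difference of -0.28 ± 0.11 (95% interval -0.54 to -0.01) had an unadjusted p of 0.0409 and an adjusted p of 1.0 in limma. Sema7a, which encodes a membrane-anchored semaphorin of axon growth, stood at 6.55 and 6.25 in non-HPX and 6.22 and 6.30 in HPX. Its non-HPX array at ZT2 was highest and the other 3 arrays lay within 0.08 of each other. The surgery difference was -0.14 ± 0.13 (95% interval -0.44 to 0.16; adjusted p = 1.0, limma).

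Among the 6 members fitted, 1 fell and 0 rose with surgery, against 0.0765% of all probesets that fell and 0 probesets that rose. At an unadjusted p under 0.05 there were 3, all lower (Aldh1a1, Hr and Flywch2), against 3.02% of all probesets lower and 1.45% higher. Both HPX values lay under both non-HPX values for 4 of the 6, an order shown by 17.6% of all probesets. The median difference over the 6 was -0.21, against -0.02 over all 11761 probesets. Hr is in these counts although it reached the floor only through non-HPX at ZT14; without it 2 of 5 had an unadjusted p under 0.05, 3 of 5 had the order and the median was -0.14. The members were chosen with results of these arrays known, so these shares are a description and not a test of the group.

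**Figure D2:**
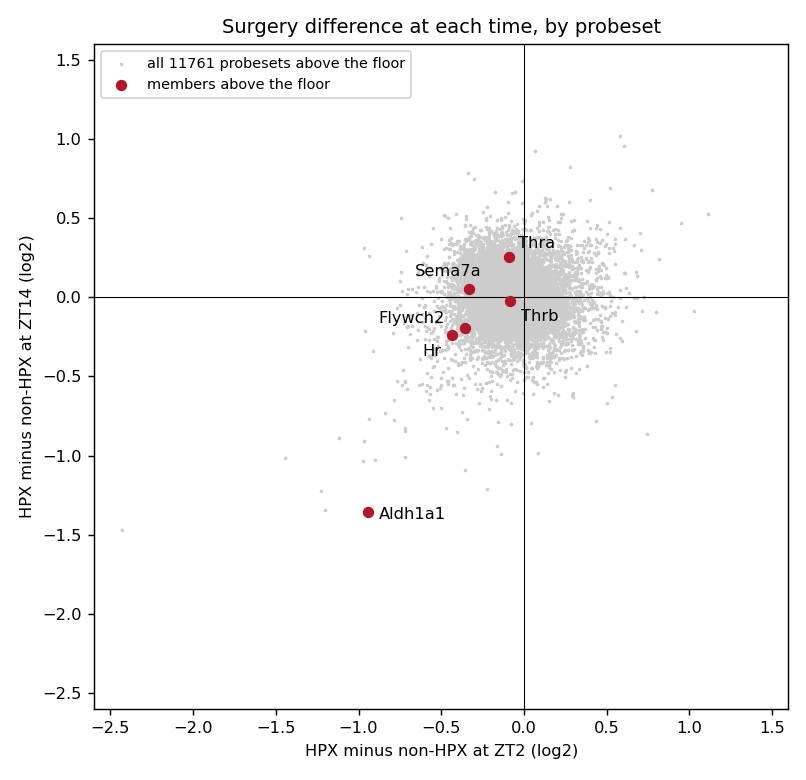
HPX minus non-HPX (log2) at ZT2 on the horizontal axis and at ZT14 on the vertical axis, for 11761 probesets above the floor (grey) and the 6 members among them (red), with no array shared between the axes. Aldh1a1 lies far from the centre at -0.94 and -1.36, Hr (-0.44 and -0.24) and Flywch2 (-0.36 and -0.19) lie at the lower left edge of the cloud, and Thra, Thrb and Sema7a lie within it.

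By size at each time, Aldh1a1 was the member at least 1.5-fold lower at ZT2, where 0.629% of all probesets were (0.221% higher), and again at ZT14, where 0.493% were (0.17% higher). It was 1 of 17 probesets (0.145%) that low at both times. The surgery difference of Aldh1a1 was larger by 0.41 at ZT14 than at ZT2. A difference between times at least that large, in either direction, occurred in 11.8% of all probesets above the floor, and with 1 array per group it was not tested.

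Night was compared with day next. Of the 6 members fitted, 0 passed for ZT14 minus ZT2 by limma and 0 had an unadjusted p under 0.05. Of all probesets, 0.179% were called lower and 0.111% higher, and 4.51% lower and 3.66% higher had an unadjusted p under 0.05. Flywch2 had lower values at night in each state, with differences of -0.34 in non-HPX and -0.18 in HPX (-0.26 ± 0.11, SE; unadjusted p = 0.0532, adjusted p = 0.626). Aldh1a1 had night differences of -0.06 in non-HPX and -0.48 in HPX (-0.27 ± 0.13; adjusted p = 0.657). Thra and Sema7a were each 0.31 lower at night in non-HPX and 0.04 and 0.08 higher in HPX, where that of Thra was -0.02 after cyclic loess. Hr was 0.04 higher at night in non-HPX and 0.23 higher in HPX. Of the 6, 0 reached 1.5-fold at night in either state. In non-HPX 0.714% of all probesets were that much lower and 0.408% higher, and in HPX 0.901% lower and 1% higher.

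**Figure D3:**
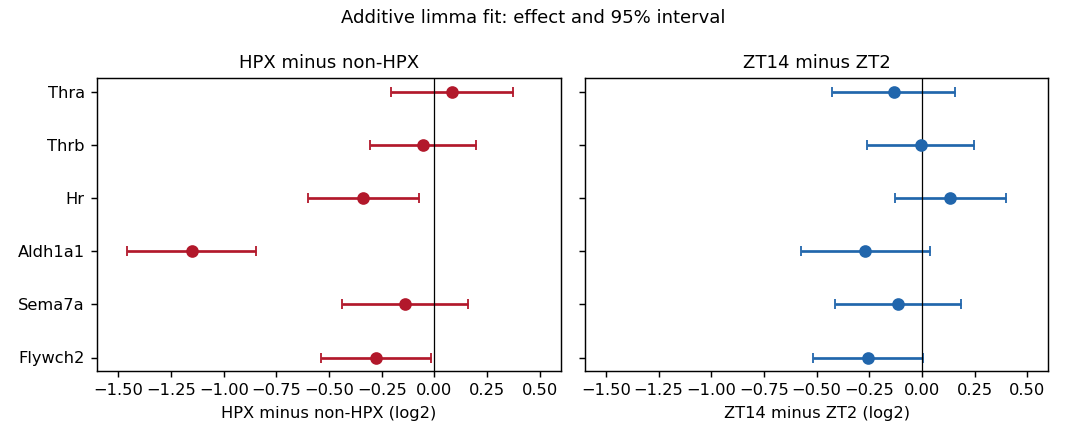
Effects of surgery (left, HPX minus non-HPX) and time (right, ZT14 minus ZT2) on the log2 scale for the 6 members above the floor, from the additive limma fit over 4 arrays, with points for estimates and bars for 95% intervals. Aldh1a1 (-1.15) stands apart for surgery, Hr and Flywch2 have intervals just below 0, and every interval for time contains 0.

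The wider pathway was described from 4 lists. Of 6 transporter genes, 5 reached the floor, and 0 passed in either comparison, with surgery differences from -0.11 to 0.08 and a median of 0.01. Slc3a2, the heavy chain that carries amino-acid transporters to the membrane, had the highest level of this list, between 9.09 and 9.34. Slco1c1, the thyroxine carrier of brain vessels and astrocytes, read 7.99 and 7.97 in non-HPX and 8.04 and 7.95 in HPX. At an unadjusted p under 0.05 the transporters held 0 genes for surgery and 1 for time. That gene, named after its values were seen, was the amino-acid and hormone carrier Slc7a5, 0.41 higher at night (unadjusted p = 0.0060, adjusted p = 0.345, limma).

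Of 12 receptor partners (retinoid X receptors, corepressors and coactivators), 9 reached the floor and 0 passed in either comparison by limma or had an unadjusted p under 0.05. Their surgery differences ran from -0.24 to 0.06 with a median of -0.07, and the histone deacetylase Hdac3, with the highest level of the list, differed by -0.02 ± 0.13. The lowest belonged to the receptor's dimer partners Rxra and Rxrb, at -0.24 each (named after their values were seen). Of 8 deiodinase regulators and hormone-binding proteins, 5 reached the floor and 0 passed or had an unadjusted p under 0.05 in either comparison by limma. Their surgery differences lay between -0.12 and 0.00, with Marchf6, a ubiquitin ligase known to act on DIO2, at 0.00 ± 0.13.

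Among 13 other genes known to respond to thyroid hormone in brain, 9 reached the floor, 1 fell with surgery and 0 rose. Itih3, which encodes a heavy chain of inter-alpha-trypsin inhibitor, a hyaluronan-binding matrix protein, stood at 9.33 and 9.26 in non-HPX and 8.11 and 8.03 in HPX. It fell by 1.23 ± 0.11 (SE; adjusted p = 0.0298, limma). Klf9, a transcription factor induced by thyroid hormone and also by glucocorticoids, stood at 8.21 and 8.25 in non-HPX and 7.49 and 7.40 in HPX. Its difference of -0.78 ± 0.11 did not pass by probeset (adjusted p = 0.111, limma). It passed in the fit per gene (adjusted p = 0.0363), where its own difference was unchanged and the set tested was another, and after cyclic loess. Under the other alternatives it did not pass, with an adjusted p from 0.0505 (intensity trend) to 0.934 (no floor). Trh, the releasing hormone gene that thyroid hormone represses in the paraventricular nucleus, stood at -0.45 ± 0.11 (adjusted p = 0.626). The list's median was -0.17 for surgery, against -0.02 over all probesets, and 8 of its 9 probesets lay below 0, as did 59.0% of all probesets. The list mixes genes that the hormone induces with genes that it represses, Trh among the latter. Its median and its count below 0 thus do not describe 1 direction of hormone response. The share of all probesets that fell was the 0.0765% given above, and the list was put together with these results known.

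**Figure D4:**
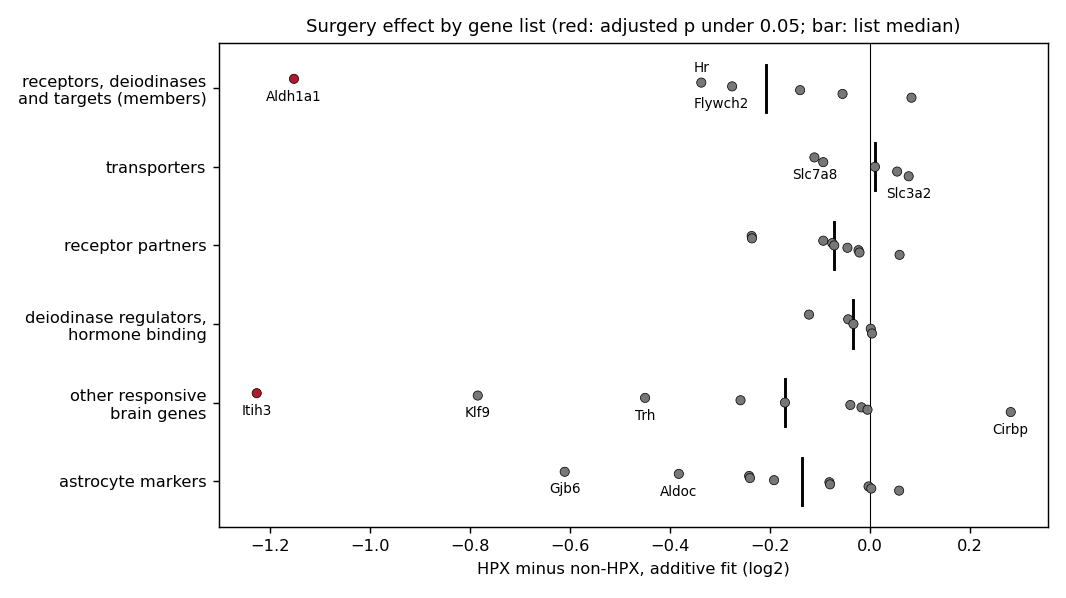
Surgery effects (HPX minus non-HPX, log2, additive limma fit) of the probesets above the floor in the members, 4 pathway lists and the astrocyte markers, with red points for an adjusted p under 0.05 and a vertical bar at each list's median. Aldh1a1 and Itih3 are the red points, and the transporters, receptor partners and deiodinase regulators lie between -0.24 and 0.08.

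As Aldh1a1 encodes a retinoic acid-forming enzyme, other retinoid genes were read beside it. Of 12 such genes, 11 had a probeset and 2 reached the floor, the retinol dehydrogenase Rdh10 and Dhrs3, and 0 passed in either comparison by limma (0 at an unadjusted p under 0.05). Rdh10 differed by -0.35 at ZT2 and by 0.12 at ZT14. The other retinaldehyde dehydrogenases, Aldh1a2 and Aldh1a3, were below the floor on all 4 arrays.

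The 5 probesets whose 4 values, each centred on its own mean, lay nearest to those of Aldh1a1 among 11760 others belonged to Th, Scrg1, Itih3, Snord66 and Snord1b. Their Euclidean distances were 0.25, 0.28, 0.29, 0.36 and 0.45 on the log2 scale over 4 arrays. Th encodes the rate-limiting enzyme of catecholamine synthesis and stood at 7.03 and 6.89 in non-HPX and 6.06 and 5.86 in HPX. Aldh1a1 was the member whose values spanned at least 1.5-fold above the floor, so no other member was matched.

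Markers of cell types that can express Aldh1a1 were read beside it. All 10 astrocyte markers reached the floor, and the log2 of their summed level was 12.80 on both non-HPX arrays and 12.60 and 12.61 on the HPX arrays. Aldoc, the highest of the list, carried the largest part of that difference, at 11.25 and 11.20 in non-HPX and 10.79 and 10.89 in HPX. Gjb6 (-0.61), a gap junction gene, and Aldoc (-0.38) were the lowest of this list, while Gfap and Aqp4 stood at 0.00 and -0.00. The median of the 10 was -0.14, against -0.02 over all probesets. Of the 10, 8 lay below 0, as did 59.0% of all probesets. For surgery 0 of the 10 passed in limma (2 at an unadjusted p under 0.05). Of 5 markers of dopamine and magnocellular neurons, all above the floor on at least 1 array, Th (-1.003 ± 0.11, adjusted p = 0.0454) and the oxytocin gene Oxt fell. The dopamine markers Ddc, Slc6a3 and Slc18a2 stood at -0.21, 0.15 and -0.10. The log2 of the summed level of these 5 was 11.15 and 11.08 in non-HPX and 9.47 and 9.95 in HPX. Oxt, at 10.80 and 10.75 in non-HPX and 8.37 and 9.28 in HPX, carried most of that sum, which without it was 8.91 and 8.78 in non-HPX and 8.56 and 8.53 in HPX. The part of these markers in the difference of Aldh1a1 was not tested, and in such tissue fewer cells of a type and less RNA per cell cannot be told apart.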

How the data were processed

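Pooled SCN tissue from 4 groups was measured on 1 Affymetrix array each; per the labels' protocols, 5.5 µg of fragmented cDNA was labelled with biotin (WT PLUS kit). Per the submitters' processing notes, the authors used Affymetrix Expression Console and RMA to make the deposited log2 values; no version is named. RMA subtracts background and gives all arrays a common intensity distribution, which hides any shift common to most genes. The number of arrays limits the precision.

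Of 41345 probesets, 23521 had 1 gene symbol in the platform annotation, 1814 had several and 16010 were unnamed here; 23328 matched a RefSeq gene by Entrez identifier and 0 symbols changed. The 11761 whose highest value reached the floor were fitted with limma 3.58.1 (R 4.3.3), with surgery and time as additive terms. Tests used eBayes, two-sided, with Benjamini-Hochberg over all 11761 and a threshold of 0.05. The fit was run beforehand on data simulated with independent noise from limma's own prior. Such data hold no spread between animals or pools, so that run does not check the p-values given here. Python 3.11.15, pandas 2.3.3 and scipy 1.17.1 did the rest. Differences between 2 arrays carry no test. Every member probeset is given; list genes are named if called, at least 1.5-fold apart or highest in their list, and other list and marker genes named were picked after their values were seen. An item of the lists is not reported here. Members and lists were chosen with earlier results of these data known. Alternatives were the floor, cyclic loess, gene means, the prior and the covariate.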

Additional observations from a re-analysis of the deposited data

Results flagged for a closer look

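The members below stood out because an effect had opposite signs in the groups compared; with 1 array per group, none of these differences was tested. The surgery effect (HPX minus non-HPX) of Thra was -0.09 at ZT2 and 0.26 at ZT14, a difference between times of 0.35. That of Sema7a was -0.33 and 0.05, a difference of 0.39. Dio2 probeset 17282970 read 0.26 and -0.11, a difference of -0.37. In Dio2 probeset 17277749 (difference 0.42) and Thrb (difference 0.058) the night change had opposite signs, at -0.17 in non-HPX and 0.25 in HPX for Dio2 and at -0.04 and 0.02 for Thrb. Both Dio2 probesets lay below the floor. A difference between times as large as that of Thra occurred in 18.4% of probesets above the floor, and one as large as that of Sema7a in 14.1%. For Thrb the share was 81.3%, so its difference was smaller than that of most probesets. Over all 11761 probesets above the floor the median surgery effect also switched sign, from -0.06 at ZT2 to 0.01 at ZT14. So did the median of night minus day, from -0.03 (non-HPX) to 0.04 (HPX). The median difference between times was 0.07, and 0.0007 with cyclic loess. Thra, Sema7a, Thrb and Dio2 probeset 17277749 had the sign of these medians, and Dio2 probeset 17282970 the opposite sign. The share of all probesets with opposite signs was not counted. After cyclic loess the surgery effects kept opposite signs for Thra (-0.02 at ZT2 and 0.24 at ZT14) and Sema7a (-0.30 and 0.05). The signs of Dio2 probeset 17282970 also stayed opposite (0.17 and -0.13), as did the night changes of probeset 17277749 (-0.24 and 0.28). The night changes of Thrb swapped signs, to 0.004 in non-HPX and -0.0036 in HPX, and its difference between times turned to -0.0076.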

How the results depend on the processing

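The surgery difference of Aldh1a1 was -1.12 after cyclic loess. It stayed at -1.15 under the other alternatives, which cannot move this estimate. Its call held in 4 of the 7 alternatives (adjusted p from 2.59e-16 to 0.934 in limma). The call held after cyclic loess, with probesets averaged per gene, with an intensity trend and with a robust prior. In the fit per gene only the set tested differed for Aldh1a1, which has 1 probeset. Members called for surgery numbered 1, and 0 without the floor, with the floor on all 4 arrays and with time left out. Over all probesets, 9 were called for surgery, 0 without the floor, 2 with the stricter floor, 108 after cyclic loess, 15 per gene and 2 with time left out. For time 34 were called, and these became 1, 22, 342, 60 and 19 in the same order, surgery being the factor left out. After cyclic loess limma estimated 1861 prior degrees of freedom, so its p-values there rest almost wholly on the shared spread. The time effect of Thrb turned from -0.01 to 0.0002 after cyclic loess. The other members passed in 0 of 68 alternative tests (lowest adjusted p = 0.236). Without the floor, probesets at least 1.5-fold apart numbered 814 in place of 100 for surgery at ZT2, 634 in place of 78 at ZT14, 882 in place of 132 for night in non-HPX and 923 in place of 224 in HPX. Of those above the floor, the share higher in HPX at ZT2 was 26% as deposited and 38.5% after cyclic loess, and the share higher at night in HPX 52.7% and 40.5%. The cause of these changes was not tested. Cyclic loess on the difference between times was chosen after seeing the data. No paired analysis was possible because the labels carry no replicate numbers and each group has 1 array. Leaving out an array leaves the additive model no residual degree of freedom and was not run.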

Other observations

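Nrgn, which encodes the postsynaptic protein neurogranin and is a classic thyroid hormone-induced gene of the forebrain, lay below the floor and outside the main test. It stood at 5.88 on both non-HPX arrays and at 5.39 (ZT2) and 5.66 (ZT14) in HPX, an order of the states like that of Hr (5.997 and 6.03 against 5.56 and 5.79). Both HPX values lay under both non-HPX values in 17.6% of all probesets above the floor, a set that does not include Nrgn. In the limma fit without the floor the surgery difference of Nrgn was -0.36, with an unadjusted p of 0.0453 and an adjusted p of 0.934. Cirbp, a cold-inducible RNA-binding protein gene known to be lowered by thyroid hormone, was the gene of the responsive list with a difference above 0. It read 6.61 and 6.78 in non-HPX and 6.93 and 7.02 in HPX, a difference of 0.28 (unadjusted p = 0.0341, adjusted p = 1.0, limma). Trh, which the hormone also represses in the paraventricular nucleus, had a difference of the opposite sign (-0.45). Nrgn and Cirbp were singled out after their values were seen.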
